A study of Homo sapiens with 16 samples.

Results

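Histone deacetylases (HDACs) remove acetyl groups from lysines of histones and other proteins, and the 10 genes described here encode the zinc-dependent enzymes of class I and class II. Class I comprised HDAC1, HDAC2, HDAC3 and HDAC8, class IIa HDAC4, HDAC5, HDAC7 and HDAC9, and class IIb HDAC6 and HDAC10. The genes were chosen by family membership, with earlier results of these data known. All 10 were among the 56865 genes with a transcript matched to the annotation, and all 10 were among the 15687 genes with enough reads to be tested.

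The study sequenced poly(A) RNA of NCI-H1299 cells, which derive from a human lung carcinoma of the non-small cell type and lack the tumour suppressor p53, and of NCI-H1299 made to express the p53 mutant Y220C stably. MS78, known as a bifunctional molecule that brings acetyltransferases to p53 Y220C, was given at 10 µM for 24 h, and DMSO was its vehicle. The 4 groups were p53-Y220C cells with MS78 (Y220C MS78), p53-Y220C cells with DMSO (Y220C DMSO), p53-null cells with MS78 (Null MS78) and p53-null cells with DMSO (Null DMSO), with 4 libraries each. The p53-Y220C cells were kept in G418 at 500 µg/mL and the p53-null cells were not, so cell line, transgene and G418 cannot be told apart when the lines are compared. Separate cultures are not named in the labels, and the p-values therefore measure only the spread between these libraries, which may be technical.

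Class I enzymes are nuclear and work within corepressor complexes such as NCOR, SIN3, NuRD and CoREST, apart from HDAC8, which acts on the cohesin subunit SMC3. Class IIa enzymes have little deacetylase activity of their own. They bind transcription factors of the MEF2 family, repress MEF2 target genes, and leave the nucleus when kinases such as CaMK and PKD phosphorylate them. The class IIb enzyme HDAC6 deacetylates tubulin and HSP90 in the cytoplasm, and HDAC10 deacetylates polyamines.

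Library totals were 20.3 M to 27.7 M estimated reads, and the chi-square per gene between libraries of 1 group was 2.53 to 11.3, so that no library repeated another. The epithelial markers KRT8, KRT18, KRT19, EPCAM and CDH1 summed to between 459 and 845 CPM (reads relative to the TMM-scaled library total) in a library. The mesenchymal markers VIM, FN1 and CDH2 summed to between 3618 and 5796 CPM. The alveolar markers SFTPB, SFTPC, NAPSA and NKX2-1 summed to no more than 1.13 CPM. Leukocyte transcripts were present in 8 libraries, replicate 1 of each DMSO group and replicates 2, 3 and 4 of each MS78 group. There, PTPRC, the gene of the leukocyte surface protein CD45, had 55 to 99 reads and the 16 leukocyte markers summed to between 46.1 and 112 CPM. In the other 8 libraries PTPRC had 0 to 1 reads and the markers summed to between 0.393 and 1.08 CPM. In RNA from a mixture, fewer cells of a type and less RNA per cell cannot be told apart. Each line had such reads in 3 of 4 MS78 but in 1 of 4 DMSO libraries, so values within each set of 8 libraries are given where they change a call. Each set thus leaves a single library in 1 group of each line, DMSO with PTPRC reads and MS78 without them. The spread of that lone library is taken from the other groups. CD2, CD3D, CD3E, GZMA and MS4A1 had at most 1 read in each library without PTPRC reads.

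HDAC9 was the gene of the family with the largest MS78 response in both lines. In p53-Y220C cells MS78 raised HDAC9 and HDAC5 and lowered HDAC10, HDAC6, HDAC7 and HDAC1. In p53-null cells it raised HDAC9 and HDAC5 and lowered HDAC2. The responses of HDAC9, HDAC5, HDAC7, HDAC6 and HDAC10 differed between the lines by the test of the difference itself. At an adjusted p under 0.05, 6 of the 10 genes were called in p53-Y220C cells, where 48.5% of all genes tested were called (24.9% higher and 23.6% lower), and 3 of 10 in p53-null cells, where 28.1% were (14.8% higher and 13.3% lower). For the difference of the responses the counts were 5 of the 10 genes, 1 higher and 4 lower, against 26.8% of all genes (14.4% higher and 12.4% lower). In either direction, the shares of the family called within each line were near those of all genes. For the difference the family's share was above it, at 5 of 10 against 26.8%, and the family was not tested as a set. The findings below concern single genes. The median log2 fold change of the 10 genes was -0.06 in p53-Y220C cells and -0.01 in p53-null cells, against -0.01 and 0.01 over all genes tested.

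**Figure D1:**
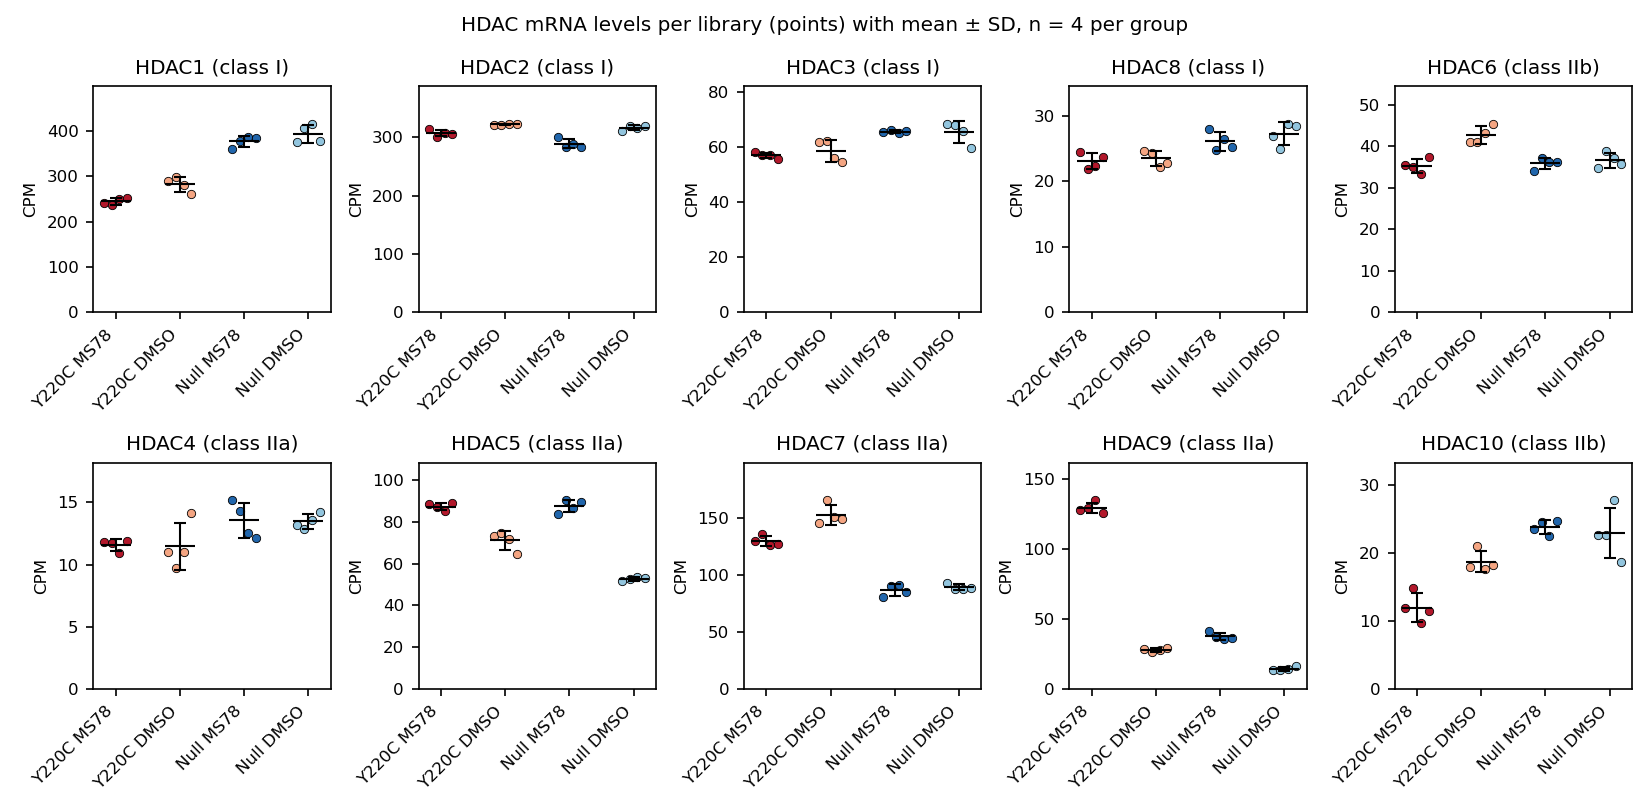
Level of each HDAC gene in CPM (vertical axes, from 0) by group, with 1 point per library and the mean ± SD of 4 libraries in black. HDAC9 separates all 4 groups without overlap, HDAC5 is lowest in Null DMSO, and HDAC10 is lowest in Y220C MS78.

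HDAC9 encodes a class IIa enzyme that was first studied in muscle and brain and that exists as long and short proteins. The gene lies on the forward strand of chromosome 7, at 18086949 to 19002416 of GRCh38. The long mRNA HDAC9-204 spans 26 exons and has 3198 coding bases, which run through the deacetylase domain. The short mRNA HDAC9-202 has 12 exons and 1770 coding bases. It reads through the splice site after position 18666476 and ends in that exon at 18668843, where HDAC9-204 continues in an exon that begins at 18727580. The short protein, known as MITR or HDRP, keeps the MEF2-binding part and lacks the deacetylase domain. The coding sequences at that branch are shown because reads from either side of it separate the forms, with the 30 shared bases in lower case and the 48 bases found in 1 form in capitals.
HDAC9-202, capitals at chr7:18666477-18666524, forward strand: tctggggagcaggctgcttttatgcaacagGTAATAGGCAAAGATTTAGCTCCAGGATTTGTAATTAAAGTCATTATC
HDAC9-204, capitals at chr7:18727580-18727627, forward strand: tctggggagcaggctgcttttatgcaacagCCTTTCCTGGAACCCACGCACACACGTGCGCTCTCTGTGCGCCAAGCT
Transcripts of HDAC9 also start at different places, called distal (HDAC9-208, at 18086949), middle (HDAC9-202 and HDAC9-204, at 18495746) and downstream (HDAC9-218, at 18509273) here. RefSeq's promoter table (GRCh38.p14) held 5 entries for HDAC9 and entries for 9 of the 10 genes. HDAC5 had none. A window of bases near each kind of start is shown because HDAC9 transcripts are described by start below. The windows end at or next to RefSeq's own starts (18086825, 18495710 and 18509270), which lie before the transcript starts named above. Capitals mark matches to motifs searched on both strands, which were the MEF2 consensus, the p53 half-site consensus, the heat shock motifs TTCNNGAA and GAANNTTC, the E-box CACGTG, the AP-1 motif TGANTCA and the cyclic AMP motif TGACGTCA, and no marked match overlaps another.
HDAC9 distal start, chr7:18086575-18086826, forward strand, MEF2 consensus: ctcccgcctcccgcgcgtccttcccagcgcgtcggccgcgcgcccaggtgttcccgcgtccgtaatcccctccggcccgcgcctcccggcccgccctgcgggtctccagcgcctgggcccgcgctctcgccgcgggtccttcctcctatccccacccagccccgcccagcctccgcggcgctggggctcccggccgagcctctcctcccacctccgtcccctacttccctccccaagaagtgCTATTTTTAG
HDAC9 middle start, chr7:18495460-18495709, forward strand, p53 half-site consensus, then TGANTCA: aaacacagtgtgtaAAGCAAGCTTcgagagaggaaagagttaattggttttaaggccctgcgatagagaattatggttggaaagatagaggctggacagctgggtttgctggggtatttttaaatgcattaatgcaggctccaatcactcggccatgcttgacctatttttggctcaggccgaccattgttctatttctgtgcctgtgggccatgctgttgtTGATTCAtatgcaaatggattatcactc
HDAC9 downstream start, chr7:18509020-18509269, forward strand, TTCNNGAA: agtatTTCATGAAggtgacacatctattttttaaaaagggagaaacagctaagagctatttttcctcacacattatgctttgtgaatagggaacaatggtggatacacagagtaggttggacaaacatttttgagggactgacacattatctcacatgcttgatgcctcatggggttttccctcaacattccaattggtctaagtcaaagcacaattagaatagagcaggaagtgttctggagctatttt
Of 35116 RefSeq promoters, 2.99% held the MEF2 consensus, 6.63% the p53 half-site consensus, 7.71% TGANTCA and 7.74% TTCNNGAA. Entries of HDAC4 and HDAC2 also held the p53 half-site consensus. A match describes the letters and not binding.

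HDAC9 stood at 128, 129, 135 and 126 CPM in the Y220C MS78 libraries, against 28.6, 26.3, 28.1 and 29.6 CPM in Y220C DMSO. It stood at 41.4, 37.2, 35.9 and 36.3 CPM in Null MS78, against 13.3, 13.4, 14.6 and 16.6 CPM in Null DMSO. No library of any group overlapped with a library of another, and the order of the groups was Null DMSO, Y220C DMSO, Null MS78 and Y220C MS78 from low to high. MS78 raised HDAC9 4.60-fold in p53-Y220C cells (log2 fold change 2.20, SE 0.06, adjusted p = 2.5e-17). The rise in p53-null cells was 2.60-fold (log2 fold change 1.38, SE 0.07, adjusted p = 1.43e-12). The response in p53-Y220C cells exceeded that in p53-null cells by 0.82 on the log2 scale (SE 0.09, adjusted p = 8.21e-07). These values lay close together in libraries with and without leukocyte transcripts. The log2 fold change in p53-Y220C cells was 2.19 within each set. That in p53-null cells was 1.45 in the set with PTPRC reads and 1.47 in the set without, and the difference was 0.75 and 0.72. In each set 1 side of every MS78 comparison was a single library. HDAC9 was also the member with the largest difference between the lines. It was 1.94-fold higher in p53-Y220C than in p53-null cells under DMSO (log2 0.96, SE 0.07, adjusted p = 4.13e-10) and 3.43-fold higher under MS78 (log2 1.78, SE 0.06, adjusted p = 4.43e-16).

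Most HDAC9 reads came from short forms, which held 93.9% ± 0.850 of them in Y220C MS78, 87.2% ± 1.83 in Y220C DMSO, 79.7% ± 3.04 in Null MS78 and 79.5% ± 2.96 in Null DMSO (SD, n = 4 each). Summed over the short transcripts, the level was 122 ± 4.11 CPM in Y220C MS78 and 24.6 ± 1.52 CPM in Y220C DMSO (SD, n = 4 each), a ratio of 4.95. It was 30.1 ± 2.48 CPM in Null MS78 and 11.5 ± 0.973 CPM in Null DMSO, a ratio of 2.62. The long transcripts summed to 7.29 ± 1.00 CPM in Y220C MS78 and 3.32 ± 0.442 CPM in Y220C DMSO, a ratio of 2.19, and to 6.65 ± 1.18 CPM in Null MS78 and 2.83 ± 0.485 CPM in Null DMSO, a ratio of 2.35. Between the lines, the libraries did not overlap in the level of the short forms and overlapped in that of the long forms under each treatment. Grouping by transcript end was chosen after the transcript values had been seen, and these sums are a description without a test.

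**Figure D2:**
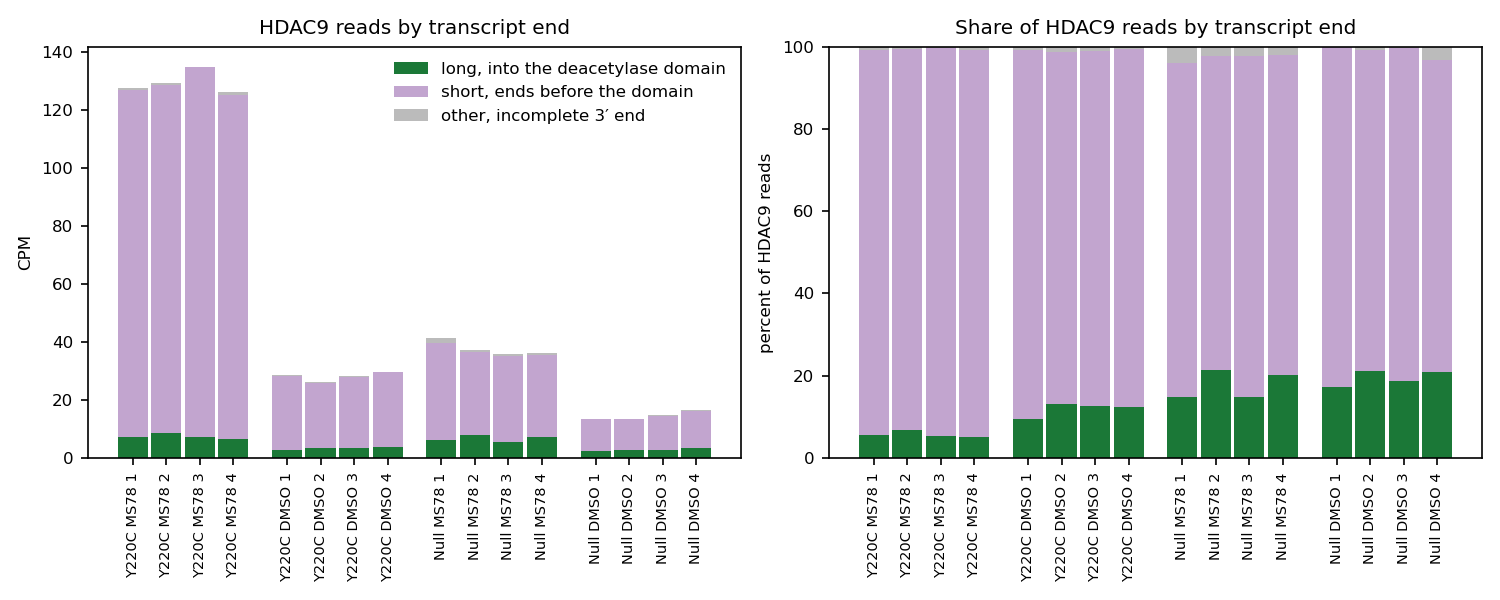
HDAC9 reads of each library in CPM (left) and as a percentage of the gene's reads (right), stacked by whether the transcript ends before the deacetylase domain, continues into it, or has an incomplete annotated 3′ end. The Y220C MS78 libraries carry the most short-form reads, at 119 to 128 CPM, and the smallest long-form share.

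Transcripts were also tested singly, while no test compared long with short forms. HDAC9-204, the long form with reads, was at 6.99, 8.71, 7.09 and 6.36 CPM in Y220C MS78, against 2.67, 3.44, 3.52 and 3.66 CPM in Y220C DMSO. It was at 6.12, 7.93, 5.23 and 7.26 CPM in Null MS78, against 2.28, 2.73, 2.73 and 3.46 CPM in Null DMSO. The MS78 libraries lay above the DMSO libraries in each line and the 2 lines overlapped. MS78 raised it by 1.13 on the log2 scale in p53-Y220C cells (SE 0.18, adjusted p = 0.000358) and by 1.26 in p53-null cells (SE 0.18, adjusted p = 0.000298). The difference of the responses was -0.14 (SE 0.25, adjusted p = 0.89). HDAC9-218, a short form from the downstream start, was at 24.5, 29.3, 29.4 and 27.9 CPM in Y220C MS78, against 5.25, 3.66, 6.22 and 5.10 CPM in Y220C DMSO. It was at 4.71, 3.00, 3.21 and 2.20 CPM in Null MS78, against 1.60, 1.67, 1.10 and 1.52 CPM in Null DMSO. It rose by 2.44 in p53-Y220C cells (SE 0.22, adjusted p = 1.48e-06) and by 1.17 in p53-null cells (SE 0.22, adjusted p = 0.00383), and the difference of 1.27 passed the threshold (SE 0.30, adjusted p = 0.0271). Of the 8 HDAC9 transcripts tested, 4 were called in p53-Y220C cells and 3 in p53-null cells, where 15.1% and 5.66% of all transcripts tested were called. HDAC9-218 was the only HDAC9 transcript called for the difference, where 4.43% of all transcripts were.

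HDAC9-202, HDAC9-203 and HDAC9-229 share most of their sequence, and the quantifier divided reads between them unevenly from library to library. HDAC9-203, for example, was at 51.2, 50.2, 41.0 and 47.0 CPM in Y220C MS78, and at 0, 10.8, 0 and 9.08 CPM in Y220C DMSO. The transcripts HDAC9-202 (log2 3.45, SE 0.73) and HDAC9-228 (log2 2.49, SE 0.73) also rose in p53-Y220C cells and HDAC9-229 (log2 2.76, SE 0.70) in p53-null cells, and their separate values are less certain than the short sum. The HDAC9-229 call was lost with 5 of the 16 libraries left out singly (adjusted p 0.0557 to 0.0890). It was also lost with a term for PTPRC reads in the fit (2.65, adjusted p = 0.0582). Within the sets of 8 libraries, HDAC9-229 in p53-null cells was at 2.18 with and 3.24 without PTPRC reads. HDAC9-202 in p53-Y220C cells was at 2.24 with and 4.32 without them. As a share of HDAC9 reads, HDAC9-204 held 5.63% ± 0.76 in Y220C MS78 and 11.8% ± 1.68 in Y220C DMSO (SD, n = 4 each), with no overlap, and 17.7% ± 3.50 in Null MS78 and 19.3% ± 1.65 in Null DMSO. The exact permutation test of the first pair gave p = 0.0286, the smallest that 4 against 4 allows, and 0.152 after adjustment over the 16 share tests of HDAC9 and HDAC5, of which 0 passed. Within sets of 8 libraries most transcript calls were lost. The rises of HDAC9-204 were 1.47 (adjusted p = 0.1) in p53-Y220C and 1.59 (adjusted p = 0.151) in p53-null cells in the set with PTPRC reads, and 0.98 (adjusted p = 0.16) and 1.06 (adjusted p = 0.287) in the set without. The rise of HDAC9-218 in p53-null cells was 0.83 (adjusted p = 0.305) with and 1.73 (adjusted p = 0.186) without PTPRC reads. Its difference was 1.61 (adjusted p = 0.162) with and 0.56 (adjusted p = 0.89) without PTPRC reads, and it missed the threshold with 7 of the 16 libraries left out singly (adjusted p 0.0535 to 0.0631) and with a replicate block (adjusted p = 0.0541).

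By start, transcripts from the middle start summed to 96.7 ± 3.05 CPM in Y220C MS78 and 21.8 ± 1.30 CPM in Y220C DMSO, and to 33.3 ± 2.01 CPM in Null MS78 and 12.1 ± 1.73 CPM in Null DMSO. Those from the downstream start summed to 32.2 ± 2.09 CPM in Y220C MS78 and 5.84 ± 1.02 CPM in Y220C DMSO, and to 3.84 ± 0.860 CPM in Null MS78 and 1.71 ± 0.0885 CPM in Null DMSO. The downstream start, whose window is the third printed above, thus held 24.9% ± 1.30 of HDAC9 reads in Y220C MS78 and 20.7% ± 3.40 in Y220C DMSO, against 10.1% ± 1.77 in Null MS78 and 11.9% ± 1.37 in Null DMSO. Transcripts from the distal start, the one with the MEF2 consensus in its window, stood at 0.436 ± 0.241 CPM in Y220C MS78, 0.412 ± 0.241 in Y220C DMSO, 0.522 ± 0.197 in Null MS78 and 0.533 ± 0.358 in Null DMSO. The distal start was near these few reads in every group, and its tested transcript HDAC9-208 had log2 fold changes of 0.07 (SE 0.63) in p53-Y220C and -0.03 (SE 0.62) in p53-null cells.

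Compared by TPM, which is a level per transcript length, HDAC9 moved through the family's order. In Y220C MS78 it was at 49.0 ± 1.67 TPM, and its libraries (46.7 to 50.7) overlapped with those of HDAC7 (49.3 to 57.1) and HDAC3 (43.4 to 49.0). In Null DMSO it was at 5.26 ± 0.998 TPM and its libraries (4.39 to 6.70) overlapped with those of HDAC4 (4.99 to 7.28), the gene next to it at the low end. HDAC9 made up 36.0% ± 1.23 of class IIa mRNA in TPM in Y220C MS78 and 10.8% ± 0.762 in Y220C DMSO, and 16.5% ± 2.51 in Null MS78 and 7.86% ± 1.36 in Null DMSO. The class IIa sum was 136 ± 6.73 TPM in Y220C MS78 and 102 ± 3.79 TPM in Y220C DMSO, and 87.1 ± 4.13 TPM in Null MS78 and 66.9 ± 4.28 TPM in Null DMSO. HDAC7 was the most abundant class IIa mRNA in every group by mean TPM, though its libraries overlapped with those of HDAC9 in Y220C MS78, at 38.8% of the class in Y220C MS78, 60.5% in Y220C DMSO, 41.8% in Null MS78 and 54.7% in Null DMSO.

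**Figure D3:**
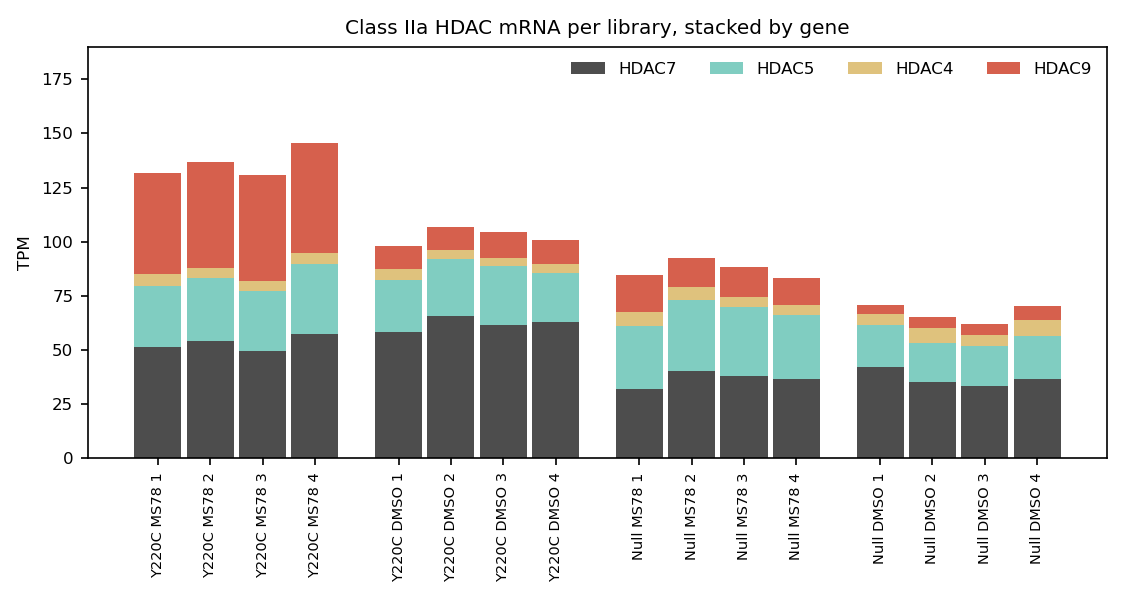
Class IIa mRNA of each library in TPM, stacked by gene. HDAC9 is the upper segment of each bar and makes up 36.0% of the class on average in Y220C MS78, against 10.8% in Y220C DMSO.

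HDAC5, a class IIa enzyme that shuttles between nucleus and cytoplasm with kinase signals, was the other gene of the family that rose in both lines. It stood at 88.5, 86.9, 85.1 and 88.8 CPM in Y220C MS78, against 73.4, 74.6, 71.7 and 64.6 CPM in Y220C DMSO. It stood at 83.6, 90.3, 86.8 and 89.5 CPM in Null MS78, against 51.5, 52.4, 53.5 and 52.98 CPM in Null DMSO. MS78 and DMSO libraries did not overlap in either line, and the MS78 groups of the lines overlapped with each other. The rise was 1.23-fold in p53-Y220C cells (log2 0.30, SE 0.04, adjusted p = 7.37e-06) and 1.66-fold in p53-null cells (log2 0.73, SE 0.04, adjusted p = 3.57e-11). The response in p53-Y220C cells was lower by 0.44 on the log2 scale (difference -0.44, SE 0.06, adjusted p = 1.91e-05), the opposite direction to HDAC9. Under DMSO HDAC5 was higher in p53-Y220C than in p53-null cells (log2 0.43, SE 0.04, adjusted p = 6.66e-08), and under MS78 the lines differed by -0.00377 (SE 0.04, adjusted p = 0.947). Within the libraries without PTPRC reads the difference of the responses was -0.32 with adjusted p = 0.225, and within those with PTPRC reads it was -0.52 with adjusted p = 0.00127.

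HDAC5-204 and HDAC5-201 held most HDAC5 reads. HDAC5-204, with 3366 coding bases, was at 54.8, 49.8, 57.3 and 57.7 CPM in Y220C MS78 and at 44.2, 45.5, 47.2 and 41.3 CPM in Y220C DMSO. It was at 49.5, 55.7, 54.8 and 48.9 CPM in Null MS78 and at 32.4, 31.9, 36.2 and 31.1 CPM in Null DMSO. It rose by 0.30 in p53-Y220C cells (SE 0.07, adjusted p = 0.00565) and by 0.68 in p53-null cells (SE 0.07, adjusted p = 7.73e-06), and the difference was -0.39 (SE 0.09, adjusted p = 0.0268), which missed the threshold with 9 of the 16 libraries left out singly (adjusted p 0.0614 to 0.0699) and in either set of 8 libraries. HDAC5-201 was at 0.32 in p53-Y220C cells (SE 0.13, adjusted p = 0.139) and rose by 0.91 in p53-null cells (SE 0.13, adjusted p = 0.00049). HDAC5-204 held 62.9% ± 4.33 of HDAC5 reads in Y220C MS78 and 62.7% ± 2.59 in Y220C DMSO, and 59.7% ± 3.72 in Null MS78 and 62.6% ± 3.91 in Null DMSO. HDAC5-201 held 28.8% ± 4.27 in Y220C MS78 and 28.1% ± 2.52 in Y220C DMSO, and 32.1% ± 4.26 in Null MS78 and 28.7% ± 3.94 in Null DMSO. Within sets of 8 libraries the calls of both transcripts were lost. The HDAC5-204 rise was 0.31 (adjusted p = 0.307) with and 0.29 (adjusted p = 0.357) without PTPRC reads in p53-Y220C cells, and 0.72 (adjusted p = 0.0656) with and 0.60 (adjusted p = 0.157) without in p53-null cells. The HDAC5-201 rise in p53-null cells was 0.77 (adjusted p = 0.368) with and 0.98 (adjusted p = 0.197) without.

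HDAC7, the class IIa member known from endothelial cells and thymocytes, was higher in the p53-Y220C line under both treatments. It stood at 130, 135, 126 and 127 CPM in Y220C MS78, against 145, 165, 151 and 149 CPM in Y220C DMSO. It stood at 80.8, 90.5, 91.4 and 84.8 CPM in Null MS78, against 92.8, 87.6, 88.0 and 88.2 CPM in Null DMSO. Both p53-Y220C groups lay above both p53-null groups, and the MS78 libraries lay below the DMSO libraries in p53-Y220C cells only. HDAC7 fell by 0.24 on the log2 scale with MS78 in p53-Y220C cells (SE 0.05, adjusted p = 0.000222). In p53-null cells the log2 fold change was -0.04 (SE 0.05, adjusted p = 0.618). The difference of -0.20 passed the threshold (SE 0.07, adjusted p = 0.0289) but did not in either set of 8 libraries, at -0.09 with and -0.13 without PTPRC reads, nor with 7 of the 16 libraries left out singly (adjusted p 0.0503 to 0.0718) or length-scaled TPM (-0.23, adjusted p = 0.142), and the fall itself was -0.16 with adjusted p = 0.0596 within the libraries with PTPRC reads. Between the lines HDAC7 was 1.71-fold higher in p53-Y220C cells under DMSO (log2 0.77, SE 0.05, adjusted p = 2.69e-11) and 1.49-fold higher under MS78 (log2 0.58, SE 0.05, adjusted p = 1.19e-09). HDAC7 overlaps SLC48A1 on the opposite strand, and whether the counting used strand is not given in the sources used here.

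HDAC4, a class IIa enzyme known for MEF2 repression in cartilage and muscle, had the fewest reads of class IIa, with 202 to 397 per library. It stood at 11.6 ± 0.452 CPM in Y220C MS78, 11.5 ± 1.89 in Y220C DMSO, 13.5 ± 1.42 in Null MS78 and 13.5 ± 0.588 in Null DMSO (SD, n = 4 each). Neither MS78 response passed the test, with log2 fold changes of 0.01 (SE 0.10) in p53-Y220C and 0.01 (SE 0.09) in p53-null cells. It was lower in p53-Y220C cells, with a log2 difference of -0.23 under DMSO (SE 0.09, adjusted p = 0.0499) and -0.23 under MS78 (SE 0.10, adjusted p = 0.0417). The value under MS78 was -0.01 (adjusted p = 0.953) with length-scaled TPM in place of reads. The call under DMSO was lost with DESeq2 (adjusted p = 0.052), with only the compared groups fitted (adjusted p = 0.0708) and with the replicate number as a block (-0.23, adjusted p = 0.0541). Neither call held within either set of 8 libraries, with -0.28 (adjusted p = 0.234) under DMSO and -0.17 (adjusted p = 0.12) under MS78 with PTPRC reads, and -0.22 (adjusted p = 0.203) and -0.36 (adjusted p = 0.255) without. The first call was lost with 13 and the second with 7 of the 16 libraries left out singly. Without replicate 1 of Null MS78, for example, the difference under MS78 was -0.17 with adjusted p = 0.145.

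**Figure D4:**
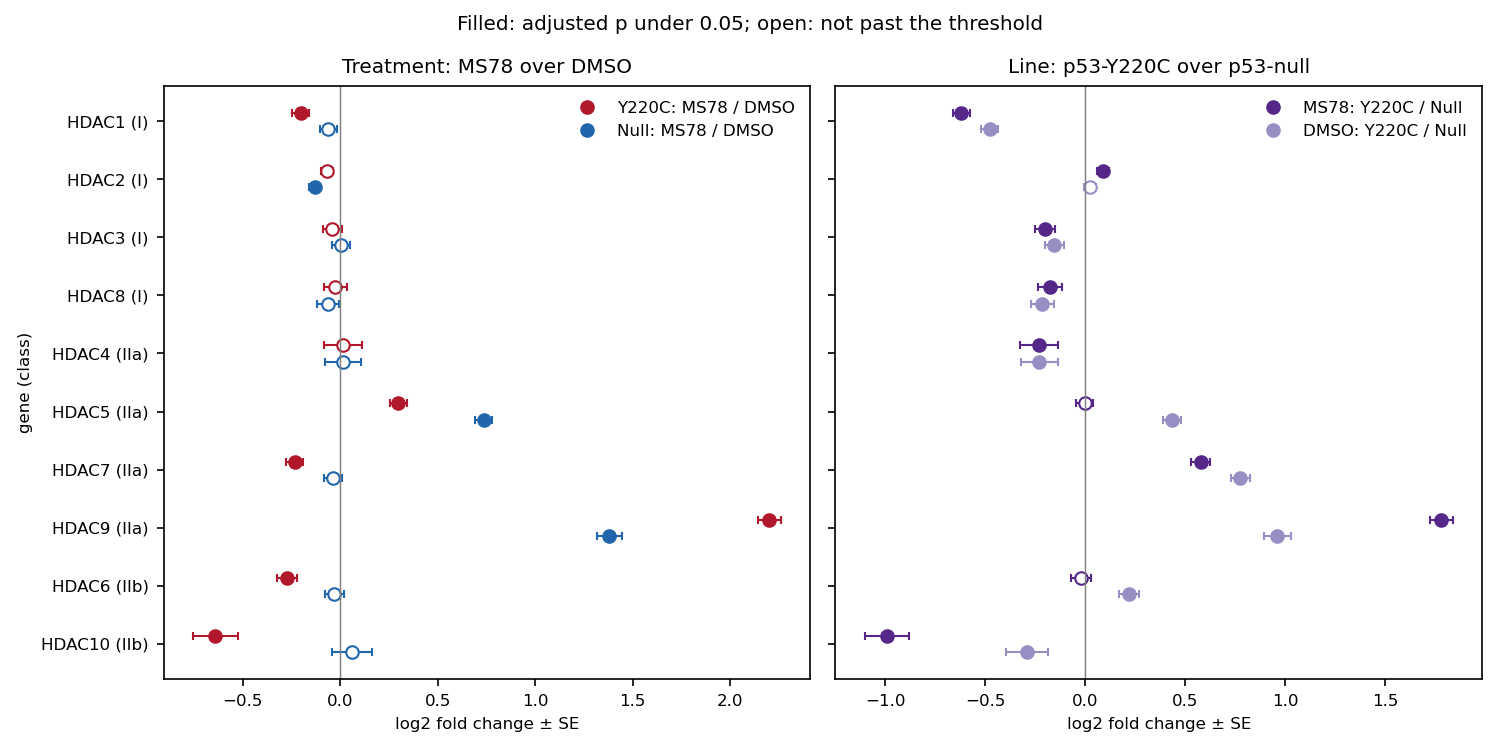
Log2 fold change ± SE of each HDAC gene for MS78 over DMSO in each line (left) and for p53-Y220C over p53-null cells under each treatment (right), with filled points past an adjusted p of 0.05. HDAC9 lies far to the right in both panels, HDAC5 rises more in p53-null cells, and HDAC10 has the lowest value in p53-Y220C cells, at -0.64.

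Both class IIb genes fell with MS78 in p53-Y220C cells, and both responses differed from those in p53-null cells. HDAC10 stood at 11.9, 14.8, 9.65 and 11.4 CPM in Y220C MS78, against 17.9, 21.0, 17.6 and 18.2 CPM in Y220C DMSO. It stood at 23.5, 24.5, 22.5 and 24.7 CPM in Null MS78, against 22.6, 22.6, 27.7 and 18.7 CPM in Null DMSO. The Y220C MS78 libraries lay below those of every other group, and the p53-null groups overlapped. The log2 fold change was -0.64 in p53-Y220C cells (SE 0.11, adjusted p = 9.8e-05), a ratio of 0.641, and 0.06 in p53-null cells (SE 0.10, adjusted p = 0.729). The difference was -0.70 (SE 0.15, adjusted p = 0.00191). Its size was alike within each set of 8 libraries, at -0.64 (adjusted p = 0.0749) with PTPRC reads and -0.70 (adjusted p = 0.222) without. HDAC10 had 185 to 682 reads per library, and it overlaps MAPK12 on the same strand, so reads of the overlap are uncertain.

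HDAC6 stood at 35.4, 34.9, 33.4 and 37.4 CPM in Y220C MS78, against 40.9, 41.0, 43.2 and 45.4 CPM in Y220C DMSO. It stood at 34.0, 37.1, 36.1 and 36.3 CPM in Null MS78, against 34.7, 38.9, 37.1 and 35.8 CPM in Null DMSO. Y220C DMSO lay above the 3 other groups, which overlapped. HDAC6 fell by 0.27 on the log2 scale in p53-Y220C cells (SE 0.05, adjusted p = 0.000119), and its log2 fold change in p53-null cells was -0.03 (SE 0.05, adjusted p = 0.705). The difference was -0.24 (SE 0.07, adjusted p = 0.0134), and it was -0.27 (adjusted p = 0.134) within the libraries with PTPRC reads and -0.15 (adjusted p = 0.617) within those without. With length-scaled TPM in place of reads it was -0.37 with adjusted p = 0.139.

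Class I mRNA was the most abundant, at 526 ± 17.6 TPM in Y220C MS78 and 580 ± 11.1 TPM in Y220C DMSO, and at 642 ± 16.7 TPM in Null MS78 and 713 ± 15.6 TPM in Null DMSO. HDAC1 and HDAC2, the near-identical catalytic partners of SIN3, NuRD and CoREST, made up most of it. HDAC1 held 33.2% ± 3.01 of class I TPM in Y220C MS78 and 35.8% ± 3.82 in Y220C DMSO, against 46.1% ± 2.35 in Null MS78 and 46.2% ± 2.84 in Null DMSO. HDAC2 held 54.4% ± 2.73 in Y220C MS78 and 52.3% ± 4.17 in Y220C DMSO, against 42.0% ± 1.96 in Null MS78 and 42.5% ± 2.86 in Null DMSO. HDAC2 was thus the leading class I mRNA in p53-Y220C cells by mean TPM.

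HDAC1 stood at 242, 236, 251 and 252 CPM in Y220C MS78, against 291, 298, 280 and 261 CPM in Y220C DMSO. It stood at 360, 379, 386 and 384 CPM in Null MS78, against 375, 406, 416 and 377 CPM in Null DMSO. All p53-Y220C libraries lay below all p53-null libraries. HDAC1 was lower in p53-Y220C cells, with a log2 difference of -0.48 under DMSO (SE 0.04, adjusted p = 1.65e-08) and -0.62 under MS78 (SE 0.04, adjusted p = 1.67e-10). It fell by 0.20 with MS78 in p53-Y220C cells (SE 0.04, adjusted p = 0.000686), and the log2 fold change in p53-null cells was -0.06 (SE 0.04, adjusted p = 0.328). That difference of -0.14 did not pass (SE 0.06, adjusted p = 0.0987), but did without replicate 4 of Y220C DMSO (-0.18, adjusted p = 0.0266) and in the set of 8 libraries with PTPRC reads (-0.25, adjusted p = 0.0396). The fall in p53-Y220C cells was -0.21 with adjusted p = 0.12 within the libraries without PTPRC reads, and -0.23 with adjusted p = 0.0513 with length-scaled TPM in place of reads.

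HDAC2 differed least between the lines among the 4 class I genes. It stood at 314, 301, 308 and 307 CPM in Y220C MS78, against 321, 322, 323 and 322 CPM in Y220C DMSO. It stood at 300, 284, 289 and 284 CPM in Null MS78, against 311, 320, 316 and 320 CPM in Null DMSO. HDAC2 overlaps the antisense gene HDAC2-AS2 on the opposite strand, and whether the counting used strand is not given in the sources used here. The MS78 libraries lay below the DMSO libraries in each line. The log2 fold change was -0.07 in p53-Y220C cells (SE 0.03, adjusted p = 0.0559) and -0.13 in p53-null cells (SE 0.03, adjusted p = 0.00145), and the difference of 0.06 did not pass (SE 0.04, adjusted p = 0.274). The change in p53-Y220C cells passed with DESeq2 (adjusted p = 0.0278) and without replicate 4 of Null DMSO, replicate 1 of Null MS78 or replicate 1 of Y220C MS78 (adjusted p 0.0462 to 0.0486). In p53-null cells the call was lost within either set of 8 libraries, at -0.14 (adjusted p = 0.0701) with PTPRC reads and -0.09 (adjusted p = 0.479) without, and with length-scaled TPM (-0.14, adjusted p = 0.0557).

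HDAC3, the enzyme of the NCOR complex, and HDAC8 showed no MS78 response that passed the test. HDAC3 averaged 57.1 ± 0.925 CPM in Y220C MS78 and 58.8 ± 3.99 in Y220C DMSO, against 65.7 ± 0.428 in Null MS78 and 65.5 ± 3.97 in Null DMSO. HDAC8 averaged 23.1 ± 1.23 CPM in Y220C MS78 and 23.5 ± 1.16 in Y220C DMSO, against 26.1 ± 1.44 in Null MS78 and 27.3 ± 1.73 in Null DMSO. Their log2 fold changes were -0.04 (SE 0.05) and -0.03 (SE 0.06) in p53-Y220C cells, and 0.00389 (SE 0.05) and -0.06 (SE 0.06) in p53-null cells. Both were lower in the p53-Y220C line. HDAC3 was at -0.16 under DMSO (SE 0.05, adjusted p = 0.0103) and -0.20 under MS78 (SE 0.05, adjusted p = 0.00113), and HDAC8 at -0.21 (SE 0.06, adjusted p = 0.00394) and -0.18 (SE 0.06, adjusted p = 0.0123). The HDAC3 call under DMSO ended without replicate 4 of Y220C DMSO (-0.12, adjusted p = 0.0529), and the HDAC8 call under MS78 without replicate 1 of Null MS78 (-0.14, adjusted p = 0.0531). With length-scaled TPM these were -0.14 (adjusted p = 0.067) for HDAC3 and -0.12 (adjusted p = 0.184) for HDAC8.

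Between the lines, 9 of the 10 genes were called under DMSO, where 50.2% of all genes tested were called (24.7% higher and 25.5% lower), and 8 of 10 under MS78, where 61.8% were (30.7% higher and 31.2% lower). Under DMSO HDAC9, HDAC7, HDAC5 and HDAC6 were higher in p53-Y220C cells, and HDAC1, HDAC3, HDAC8, HDAC4 and HDAC10 were lower. The median log2 fold change was -0.19 for class I and 0.60 for class IIa, against 0.00347 over all genes. HDAC9, HDAC7, HDAC5 and HDAC1 kept these calls in either set of 8 libraries, while those of HDAC3, HDAC4 and HDAC10 passed in neither. HDAC3 was at -0.16 (adjusted p = 0.141) with and -0.16 (adjusted p = 0.104) without PTPRC reads, and HDAC10 at -0.35 (adjusted p = 0.205) and -0.27 (adjusted p = 0.122). With PTPRC reads the calls of HDAC6 (0.22, adjusted p = 0.102) and HDAC8 (-0.14, adjusted p = 0.372) under DMSO were lost too. Without them the calls under MS78 of HDAC8 (-0.18, adjusted p = 0.341), HDAC3 (-0.16, adjusted p = 0.362) and HDAC2 (0.07, adjusted p = 0.514) were lost. Under MS78 HDAC9, HDAC7 and HDAC2 were higher and HDAC1, HDAC3, HDAC8, HDAC4 and HDAC10 were lower. HDAC10 was at -0.29 under DMSO (SE 0.10, adjusted p = 0.0261), a call that ended without replicate 3 of Null DMSO (-0.19, adjusted p = 0.136) or without replicate 1, 3 or 4 of Y220C DMSO (-0.27, -0.26 and -0.27). It was -0.18 (adjusted p = 0.426) with length-scaled TPM. Under MS78 it was at -0.99 (SE 0.11, adjusted p = 1.59e-07). HDAC6 was at 0.22 (SE 0.05, adjusted p = 0.000864) and -0.02 (SE 0.05, adjusted p = 0.703). The HDAC6 call under DMSO was lost with length-scaled TPM (0.26, adjusted p = 0.083). HDAC2 was at 0.02 under DMSO (SE 0.03, adjusted p = 0.513) and 0.09 under MS78 (SE 0.03, adjusted p = 0.0125).

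Of the 4 MEF2 genes, whose products class IIa enzymes bind, 3 rose and 0 fell in each line, where 24.9% of all genes rose and 23.6% fell in p53-Y220C cells and 14.8% rose and 13.3% fell in p53-null cells. MEF2C stood at 92.9 ± 2.48 CPM in Y220C MS78 and 74.5 ± 3.40 in Y220C DMSO, and at 189 ± 10.0 in Null MS78 and 87.9 ± 3.90 in Null DMSO. Its log2 fold change was 0.32 in p53-Y220C cells (SE 0.05, adjusted p = 8.35e-06) and 1.10 in p53-null cells (SE 0.04, adjusted p = 8.68e-14), and the difference was -0.79 (SE 0.06, adjusted p = 1.93e-08). MEF2C, like HDAC5, thus responded more in p53-null cells, where HDAC9 responded less. MEF2D rose by 0.33 in p53-Y220C and 0.54 in p53-null cells, and MEF2A by 0.31 and 0.22.

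Of 6 genes known in other cells as targets of MEF2 and class IIa enzymes, 6 rose in p53-Y220C cells (median log2 fold change 1.58), and 5 rose and 1 fell in p53-null cells (median 0.48), where the medians of all genes were -0.01 and 0.01. Over all genes, 24.9% rose and 23.6% fell in p53-Y220C cells, and 14.8% rose and 13.3% fell in p53-null cells. This list, like the other lists of partner genes, was drawn up with earlier results of these data known. Its counts and medians are therefore a description and not a test. The gene that fell was JUN, which rose by 2.53 in p53-Y220C cells (SE 0.05, adjusted p = 5.27e-20) and was at -0.23 in p53-null cells (SE 0.05, adjusted p = 0.00118). RHOB, a small GTPase gene, rose by 1.68 in p53-Y220C cells (SE 0.04) and by 0.49 in p53-null cells (SE 0.05). Against the same shares of all genes, the larger lists gave the following counts. Of 42 tested genes of the class I corepressor complexes, 8 rose and 17 fell in p53-Y220C cells, and 6 rose and 5 fell in p53-null cells, with medians of -0.08 and -0.01. RCOR2 of CoREST fell by 0.58 in p53-Y220C cells (SE 0.11), ING1 of SIN3 rose by 0.51 there (SE 0.08), and DNTTIP1 of the MIDEAS complex rose by 0.52 in p53-null cells (SE 0.05). Among 12 substrates and partners of HDAC6, 7 rose and 3 fell in p53-Y220C cells and 5 rose and 2 fell in p53-null cells. HSP90AA1, the gene of the chaperone HSP90 alpha, rose by 1.16 in p53-Y220C cells (SE 0.03) and 0.18 in p53-null cells (SE 0.03), and SQSTM1, which carries ubiquitinated cargo, by 1.13 (SE 0.03) and 0.62 (SE 0.03). Of 10 polyamine genes beside the HDAC10 reaction, 1 rose and 6 fell in p53-Y220C cells and 2 rose and 3 fell in p53-null cells. SAT1, the gene of a polyamine acetyltransferase, rose by 1.77 in p53-Y220C cells (SE 0.04) and 0.68 in p53-null cells (SE 0.05). Among the 6 that fell in p53-Y220C cells, SRM was at -0.41 (SE 0.08) and SMOX at -0.16 (SE 0.06).

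Among 12228 protein-coding genes, those whose pattern over the 16 libraries was nearest to HDAC9 were GDA, OSGIN1 and NR4A1. The root mean square difference of their centred log2 CPM from that of HDAC9 was 0.187, 0.30 and 0.341, where the median over these genes was 1.16. GDA, the guanine deaminase gene, stood at 70.8 ± 1.98 CPM in Y220C MS78 and 17.95 ± 1.44 in Y220C DMSO, and at 26.9 ± 2.82 in Null MS78 and 10.7 ± 1.04 in Null DMSO, the same order of groups as HDAC9. NR4A1, an immediate early receptor gene, stood at 36.5 ± 1.41 CPM in Y220C MS78 and 6.55 ± 0.872 in Y220C DMSO, and at 14.96 ± 0.772 in Null MS78 and 5.34 ± 0.194 in Null DMSO. For HDAC5, HS1BP3 and FBXO27 were among the nearest genes, at 0.0965 and 0.105 where the median was 0.361. These likenesses describe 16 libraries that the genes share. No nearest protein-coding neighbour of HDAC9 or HDAC5 on the genome had a rise that passed the test. TWIST1, next to HDAC9, had log2 fold changes of -0.16 in p53-Y220C cells (SE 0.10, adjusted p = 0.182) and 0.16 in p53-null cells (SE 0.09, adjusted p = 0.217), and PRPS1L1 on the other side had 0 reads in every library. G6PC3 beside HDAC5 was at -0.22 (SE 0.06, adjusted p = 0.00777) and -0.00545 (SE 0.06, adjusted p = 0.964). C17orf53, on the other side of HDAC5, was at -0.23 (SE 0.11, adjusted p = 0.0831) and -0.25 (SE 0.10, adjusted p = 0.0778).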

How the data were processed

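Each of the 16 libraries has 1 table in the format Salmon writes, with 1 line per transcript. The authors deposited estimated counts per transcript, fractional where reads were shared between transcripts and not normalized, per the file headers. The deposited TPM is relative to effective transcript length and library sum, per the file headers, which also give the 2 lengths. The build was hg38 and FastQC 0.11.8 was used, per the submitters' processing notes, while the sources used here do not give version, annotation or strand setting of the quantifier. Of 197653 transcripts, 193348 (97.82%) matched GENCODE 29 (GRCh38) by identifier, and the rest held 0.278% to 0.325% of a library's reads. Reads were summed per gene and rounded.

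The quasi-likelihood test of edgeR 4.0.16 (R 4.3.3; filterByExpr, TMM) was fitted once to all 16 libraries, with a mean for each group and 12 residual degrees of freedom, for genes and separately for transcripts. P-values were adjusted by Benjamini-Hochberg over all 15687 genes or 47159 transcripts tested, with a threshold of 0.05. Adjusted p-values of genes and transcripts are those of edgeR unless DESeq2 is named beside them. CPM uses the TMM-scaled totals. SE is the log2 fold change divided by the root of its F statistic. Shares were compared by two-sided exact permutation tests. The tests were checked on simulated counts. Read counts carry counting error, the quantifier's error in dividing reads between transcripts, and the spread between libraries. By counting error alone, a count of 0 allows up to 3 reads.

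The members, the lists of partner genes and the rule for named genes (all members, up to 3 called genes per list with the largest change, the 3 most similar genes and both neighbours of HDAC9 and HDAC5) were chosen with earlier results of these data known. Some genes so named are given by count only or are not reported here. Replicate numbers were checked for pairing by the correlation of same-numbered libraries' deviations from their group means. Between MS78 and DMSO of 1 line all 8 were negative (-0.502 to -0.0419), and the numbers were not treated as pairs. Leukocyte reads fell on the same replicate numbers in both lines, and on other numbers under DMSO than under MS78. The correlations therefore cannot tell pairing by number from that shared pattern. Between the MS78 groups of the 2 lines all 4 were between 0.15 and 0.531. With the replicate number as a block 8 members were called there, as without it. Over all genes tested, 9623 were called with the block and 9699 without it. Between the DMSO groups 3 of 4 were over 0.1 (-0.0568 to 0.452), and the numbers were not treated as pairs. Alternatives were DESeq2 1.42.0, RLE factors, other filters, length-scaled TPM, a replicate block, a PTPRC term, each set of libraries by PTPRC reads, only the compared groups, and each library left out.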

Additional observations from a re-analysis of the deposited data

Results flagged for a closer look

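The test of the difference between the lines' MS78 responses (p53-Y220C minus p53-null) flagged 5 genes and 2 transcripts, on the log2 scale. HDAC9 had 0.82, HDAC5 -0.44, HDAC7 -0.20, HDAC6 -0.24 and HDAC10 -0.70, and the transcripts HDAC9-218 and HDAC5-204 had 1.27 and -0.39. In 3 of the 48 groups of 4 values examined, 1 library stood apart from the other 3, where chance flags about 1 in 20. HDAC4 was at 10.9 CPM in Y220C MS78 replicate 3, HDAC7 at 92.8 CPM in Null DMSO replicate 1, and the short HDAC9 transcripts at 128 CPM in Y220C MS78 replicate 3. Whether library quality has a part in these values was not tested.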

How the results depend on the processing

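Of 1300 member values under the alternatives, 1224 kept their side of the threshold, 69 lost a call, 7 gained one and 0 reversed. Leaving out 1 library at a time gave 2.17 to 2.23 for HDAC9 in p53-Y220C cells, 1.33 to 1.45 in p53-null cells and 0.75 to 0.87 for their difference. Restricting the fit to the libraries without PTPRC reads, which leaves 1 or 3 libraries a group (a lone one is taken to vary like the other groups), gave 3490 called genes in p53-Y220C cells, 1070 in p53-null cells, 411 for the difference and 4184 between the lines under MS78. It called 1 member for the difference and 4 under MS78, with HDAC5 at -0.32 for the difference (adjusted p = 0.225), and 1 transcript in p53-Y220C cells, 0 in p53-null cells and 0 for the difference. The libraries with PTPRC reads gave 2346 genes in p53-null cells, 1870 for the difference and 3817 between the lines under DMSO. They called 3 members for the difference and 4 between the lines under DMSO, and 1 transcript in p53-null cells and 0 for the difference. Length-scaled TPM gave 2854 genes in p53-null cells and 2750 for the difference, with 3 members called. Fewer libraries enter the first 2 fits, and the cause of the last was not tested. No filter on low counts left 1 transcript called for the difference, and single libraries left out gave 0 to 2. With the replicate number as a block, 6 members were called in p53-Y220C cells, 3 in p53-null cells, 5 for the difference and 8 between the lines under each treatment, with 1 transcript for the difference. Over all genes tested, that block gave 7442 called genes in p53-Y220C cells, 4251 in p53-null cells and 4060 for the difference. Between the lines it gave 7774 under DMSO and 9623 under MS78. Whether the numbers mark pairs cannot be told apart from the leukocyte pattern, so this block is an alternative only. HDAC10, HDAC4 and the long HDAC9 transcript had few reads, which limits their precision.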

Other observations

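Of the 4 tested genes that supply acetyl groups, 3 rose in each line and 1 fell in p53-Y220C cells. Over all genes, 24.9% rose and 23.6% fell in p53-Y220C cells, and 14.8% rose and 13.3% fell in p53-null cells. ACSS2, which makes acetyl-CoA out of acetate, stood at 426 ± 4.75 CPM in Y220C MS78 and 65.2 ± 1.94 in Y220C DMSO, and at 298 ± 15.8 in Null MS78 and 59.8 ± 1.61 in Null DMSO (SD, n = 4 each). Its log2 fold change was 2.71 in p53-Y220C cells (SE 0.04, adjusted p = 1.7e-21) and 2.32 in p53-null cells (SE 0.04, adjusted p = 3.57e-20). ACLY, which makes acetyl-CoA out of citrate, rose by 2.06 and 1.93, and the citrate carrier gene SLC25A1 by 0.65 and 0.77. Of 10 acetyltransferase genes, 2 rose and 3 fell in p53-Y220C cells and 3 rose and 3 fell in p53-null cells. EP300 rose by 0.30 in each line (SE 0.09 in p53-Y220C and 0.08 in p53-null cells).

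The counts below stand against 24.9% higher and 23.6% lower over all genes in p53-Y220C cells, and 14.8% and 13.3% in p53-null cells. Of the 8 other deacetylase genes, the sirtuins and HDAC11, 3 rose and 2 fell in p53-Y220C cells and 1 rose in p53-null cells. SIRT1, a deacetylase of p53 and histones, rose by 0.52 in p53-Y220C cells (SE 0.04, adjusted p = 4.82e-09), and was at -0.01 in p53-null cells (SE 0.05, adjusted p = 0.889), a difference of 0.53 (adjusted p = 3.5e-06). SIRT5 fell by 0.52 in p53-Y220C cells. Among 7 cohesin and cohesin acetyltransferase genes, which concern the HDAC8 substrate, 1 rose and 4 fell in p53-Y220C cells and 1 rose and 5 fell in p53-null cells. ESCO2, which acetylates SMC3, fell by 0.79 and 0.90. Of the 17 tested kinases of class IIa enzymes, 6 rose and 1 fell in p53-Y220C cells and 2 rose and 1 fell in p53-null cells, with CAMK2D up by 0.39 and 0.28. Of the 7 YWHA and SFN adaptor genes, whose products hold phosphorylated class IIa enzymes in the cytoplasm, 1 rose and 2 fell in p53-Y220C cells and 1 rose in p53-null cells. These lists were not tested as sets.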
